A study of Mus musculus with 12 samples.

Results

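The histone cluster genes of mouse liver were taken as the 69 genes, of 24532 in the deposited table, whose symbol starts with Hist1h, Hist2h, Hist3h or Hist4h. Membership followed from the symbol alone. They comprised 6 genes of the linker histone H1, 19 of H2A, 19 of H2B, 12 of H3 and 13 of H4, and 2 of the 69 (Hist1h2al and Hist3h2bb-ps) are pseudogenes in the RefSeq annotation. RNA-seq was made from 12 livers of male C57BL/6 mice, 10 to 12 weeks old when feeding began, in 4 groups of 3 livers. All 4 groups carried floxed *Ahr* alleles (*Ahr* fl/fl), the gene of the aryl hydrocarbon receptor. WT mice were littermates without Cre, and *Ahr* HKO mice carried *Alb-Cre*, which is active in hepatocytes, so that other liver cells kept the receptor gene. Mice of each genotype received a Lieber-DeCarli liquid diet with ethanol (EtOH, 5% vol/vol) or an isocaloric control liquid diet (con) for 5 weeks, which gives the groups WT con, WT EtOH, HKO con and HKO EtOH.

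Core histones H2A, H2B, H3 and H4 form the protein spool around which DNA is wound, and H1 sits on the DNA between spools. Most of their genes lie in clusters, have no intron, and are transcribed mainly while DNA is copied in S phase. Their messages usually end in a short stem-loop that binds the protein SLBP and carry no poly(A) tail, unlike nearly all other messages, although several of these genes also give polyadenylated messages in cells that do not divide. Adult hepatocytes divide rarely. The libraries were prepared with poly-T beads, so that histone messages without a poly(A) tail should be captured poorly, and the values below are those of reads captured in this way.

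The stem-loop was found after the stop codon of 44 of the 69 genes in GENCODE transcripts, in 6 different forms. The most frequent forms are shown because they carry the end that sets these messages apart, with the paired stem in capitals and the loop in lower case (each form was read from GRCm38 transcripts). The first was found in 26 genes of H1, H2A, H2B and H3, the second in 7 genes of H4, and the third in 6 genes of H1, H2B and H3.
Hist stem-loop, form 1: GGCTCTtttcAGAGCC
Hist stem-loop, form 2: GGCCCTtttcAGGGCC
Hist stem-loop, form 3: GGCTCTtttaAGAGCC
In 22 genes the annotated transcript ran on by 100 bases or more beyond the stem-loop, with a median level of 0.496 FPKM and a range of 0.0177 to 35.3 FPKM over the 12 livers. In the other 22 it ended within 100 bases, with a median of 0.410 FPKM and a range of 0.000675 to 42.1 FPKM. The 25 genes without the stem-loop in their annotated transcripts had a median of 0.199 FPKM and included the highest of all, Hist1h2bc at 161.8 FPKM. In several of these 25 genes the annotated transcript was the coding sequence alone, as in Hist1h2bl and Hist1h2bn (381 bases) and Hist1h4k (312 bases). There was then no sequence after the stop codon to search, and the 2 pseudogenes were not searched. Whether the level follows the transcript end can therefore not be read from these groups. FPKM, the fragments counted per kilobase of gene at a common depth, is a level per length, and the only scale used here to set different genes side by side.

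Near-identical genes share reads, and for this family the sharing is large. Of the 67 genes with an annotated coding sequence, 63 sequences were distinct. Of each gene's 100-base windows, the length of 1 read, a median of 58.9% also occurred in the coding sequence of another member, and in 39 genes at least 50% of the windows did so. The median was 4.90% for H1, 74.4% for H2A, 52.0% for H2B, 71.7% for H3 and 60.1% for H4, so that H1 genes were the most separable. How the authors' counting divided reads that match several genes is not given in the sources used here.

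The H2B genes are shown over 150 coding bases (bases 224 to 373 of 381, GRCm38), because the sharpest differences between groups lay among them. Capitals mark bases that differ from Hist1h2bc, and the lines after the first lie at chr13:23571656-23571805 (plus strand) for Hist1h2bg, chr13:23573818-23573967 (minus) for Hist1h2bf, chr13:22043453-22043602 (plus) for Hist1h2bj, chr13:22036110-22036259 (plus) for Hist1h2bk, chr13:21715771-21715920 (minus) for Hist1h2bl and chr13:21809799-21809948 (minus) for Hist1h2bq. Hist1h2bc itself lies at chr13:23684455-23684604 (plus).
Hist1h2bc: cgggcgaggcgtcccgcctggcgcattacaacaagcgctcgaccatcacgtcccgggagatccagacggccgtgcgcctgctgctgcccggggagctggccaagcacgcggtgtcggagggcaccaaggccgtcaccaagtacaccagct
Hist1h2bg: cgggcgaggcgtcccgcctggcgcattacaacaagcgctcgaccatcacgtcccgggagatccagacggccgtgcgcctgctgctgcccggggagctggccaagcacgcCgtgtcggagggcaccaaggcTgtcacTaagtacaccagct
Hist1h2bf: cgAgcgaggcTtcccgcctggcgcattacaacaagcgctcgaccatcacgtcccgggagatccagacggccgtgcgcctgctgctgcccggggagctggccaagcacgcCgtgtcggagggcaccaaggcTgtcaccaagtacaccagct
Hist1h2bj: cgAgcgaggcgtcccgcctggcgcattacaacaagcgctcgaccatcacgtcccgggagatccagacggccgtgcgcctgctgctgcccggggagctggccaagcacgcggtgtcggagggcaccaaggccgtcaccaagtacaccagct
Hist1h2bk: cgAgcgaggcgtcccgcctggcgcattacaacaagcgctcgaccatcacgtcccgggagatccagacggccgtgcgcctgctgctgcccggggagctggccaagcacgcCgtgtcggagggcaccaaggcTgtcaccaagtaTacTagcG
Hist1h2bl: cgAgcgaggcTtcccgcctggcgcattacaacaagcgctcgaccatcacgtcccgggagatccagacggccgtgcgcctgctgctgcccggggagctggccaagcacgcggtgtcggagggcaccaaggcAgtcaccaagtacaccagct
Hist1h2bq: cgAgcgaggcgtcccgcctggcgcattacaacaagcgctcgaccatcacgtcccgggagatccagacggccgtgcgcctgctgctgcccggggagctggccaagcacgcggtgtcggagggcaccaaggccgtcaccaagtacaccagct
In this stretch 8 positions varied among the 7 genes, and 17 varied over the 381 coding bases compared. Over those 381 bases Hist1h2bc differed from Hist1h2bq at 2 bases, from Hist1h2bj at 4, from Hist1h2bg at 5, from Hist1h2bf and Hist1h2bl at 6 each, and from Hist1h2bk at 8. Hist1h2bj and Hist1h2bq read alike over the whole stretch, and a read placed entirely inside it cannot tell them apart. Hist1h2bk shared 82.6% of its 100-base windows with Hist1h2bq but 27.0% with Hist1h2bc, whereas Hist1h2bg shared 73.0% with Hist1h2bc. Hist2h2be, in the chromosome 3 cluster, shared no 100-base window with any other member.

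**Figure D1:**
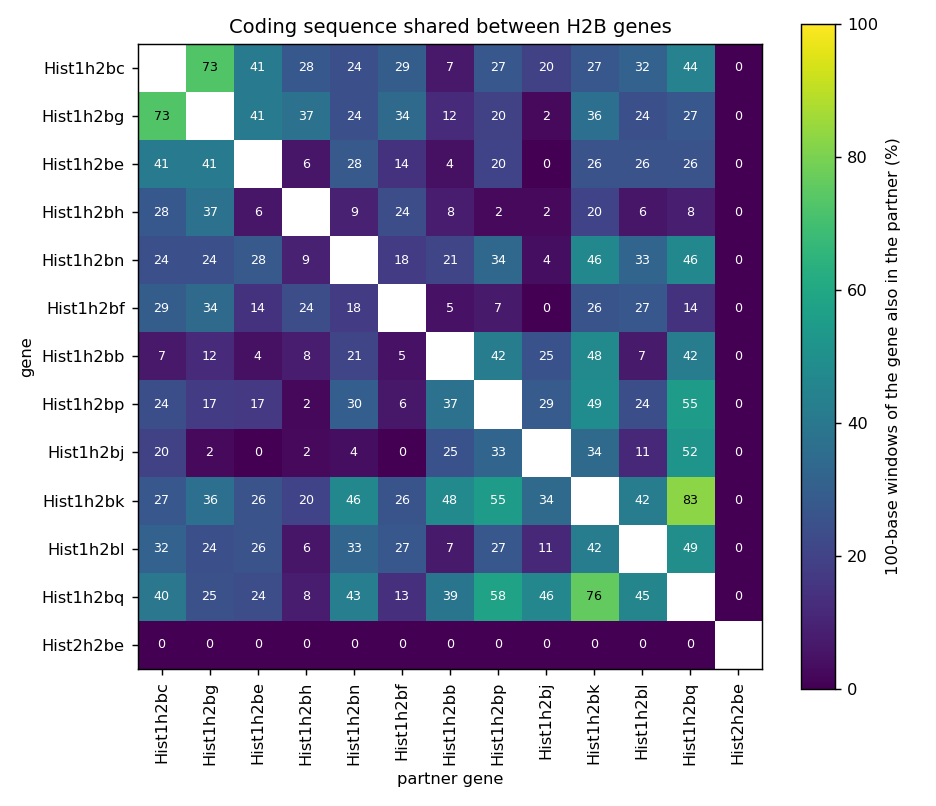
Share of the 100-base coding windows of each H2B gene (rows) that also occur in a partner gene (columns), in percent, for 13 genes. The highest shares join Hist1h2bk and Hist1h2bq (82.6%) and Hist1h2bc and Hist1h2bg (73.0%), and the row of Hist2h2be is at 0 throughout.

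The libraries held 46306518 to 74336255 counts, and reads of the 69 genes made up 193.0 to 284.8 of every 1000000 counts. All levels below marked CPM are counts scaled to a library of 1000000 counts after TMM scaling, a scaling of library size set by the bulk of genes. Hist1h2aa had no read in any library, 22 members never reached 10 counts, and 41 members passed the filter on low counts and were tested, namely 3 of H1, 9 of H2A, 15 of H2B, 4 of H3 and 10 of H4. The summed *Ahr* count of a library is no check of its label, since a single exon is deleted and the deposited count covers the whole gene. It was 16.6 to 20.1 CPM in WT con, 20.8 to 30.5 CPM in WT EtOH, 41.3 to 65.5 CPM in HKO con and 24.7 to 41.8 CPM in HKO EtOH. In whole liver, fewer cells of a type and less RNA per cell cannot be told apart.

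A few genes carried most of each class. Hist1h1c, an H1 gene of somatic cells (17.3 FPKM, mean of 12 livers), took 84.8 to 97.4% of H1 counts, ahead of Hist1h1d (0.502 FPKM) and Hist1h1e (0.390 FPKM). In H2A, Hist2h2aa1 (42.1 FPKM) and Hist2h2aa2 (31.5 FPKM) led, followed by Hist3h2a (6.22 FPKM). Hist1h2bc (161.8 FPKM) took 59.9 to 80.1% of H2B counts, Hist1h2bg (35.3 FPKM) 9.36 to 10.95% and Hist1h2bk (9.18 FPKM) 0.776 to 7.88%. Levels of H3 and H4 were far lower, with Hist2h3c2 (3.33 FPKM), Hist2h3c1 (1.66 FPKM) and Hist2h3b (1.39 FPKM) leading H3, and Hist1h4h (5.24 FPKM), Hist1h4i (3.56 FPKM) and Hist1h4b (0.822 FPKM) leading H4. The core histones of 1 spool are needed in equal amounts, but the captured reads were not: the H2B sum exceeded the H3 sum in every library.

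The classes differed in how they varied across the groups. The summed H3 level was 3.15 to 4.18 CPM in WT con, 1.82 to 1.96 CPM in WT EtOH, 10.2 to 12.04 CPM in HKO con and 2.68 to 3.49 CPM in HKO EtOH. HKO con thus stood apart from the other groups, with no overlap, at 11.3 ± 0.975 CPM (SD, n = 3) against 3.68 ± 0.515 CPM in WT con. The summed H2A level had the same order, at 55.9 ± 13.9 CPM in WT con, 29.1 ± 1.29 CPM in WT EtOH, 83.3 ± 6.55 CPM in HKO con and 39.7 ± 6.86 CPM in HKO EtOH (SD, n = 3 each), and the ethanol groups did not overlap with the control groups of their genotype. The H4 sum was 7.79 ± 2.06 CPM in WT con and 3.92 ± 1.08 CPM in WT EtOH, without overlap, while HKO con (7.42 ± 1.80 CPM) and HKO EtOH (4.50 ± 1.16 CPM) overlapped. Without Hist2h2aa1 the H2A sum overlapped in WT, at 11.6 to 29.6 CPM in WT con and 16.4 to 17.7 CPM in WT EtOH. Without Hist1h4h the H4 sum was 2.95 to 4.64 CPM in WT con and 2.34 to 2.89 CPM in WT EtOH.
H2B differed from these classes. Its sum was 163.4 ± 25.1 CPM in WT con, 148.4 ± 10.4 CPM in WT EtOH, 152.5 ± 22.8 CPM in HKO con and 197.2 ± 27.5 CPM in HKO EtOH, and the HKO EtOH livers lay above both WT EtOH and HKO con in CPM. In FPKM the same sum was 252.2 to 327.8 in HKO EtOH, 217.5 to 265.1 in WT EtOH and 184.6 to 267.6 in HKO con, and the groups overlapped. Without Hist1h2bc the H2B sum took another shape, with 35.5 ± 5.79 CPM in WT con, 29.9 ± 2.34 CPM in WT EtOH, 57.3 ± 13.1 CPM in HKO con and 52.1 ± 4.85 CPM in HKO EtOH, and both HKO groups lay above their WT groups. H1 varied most within groups, from 8.68 to 34.1 CPM in WT EtOH and from 5.59 to 18.9 CPM in HKO con, and HKO EtOH (3.77 to 8.46 CPM) lay wholly under WT EtOH. Without Hist1h1c the remaining H1 genes held 0.361 to 0.439 CPM in HKO EtOH, which overlapped with WT EtOH (0.366 to 1.04 CPM) and lay under HKO con (0.726 to 2.42 CPM). These sums are descriptions, and no test was run on them.

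**Figure D2:**
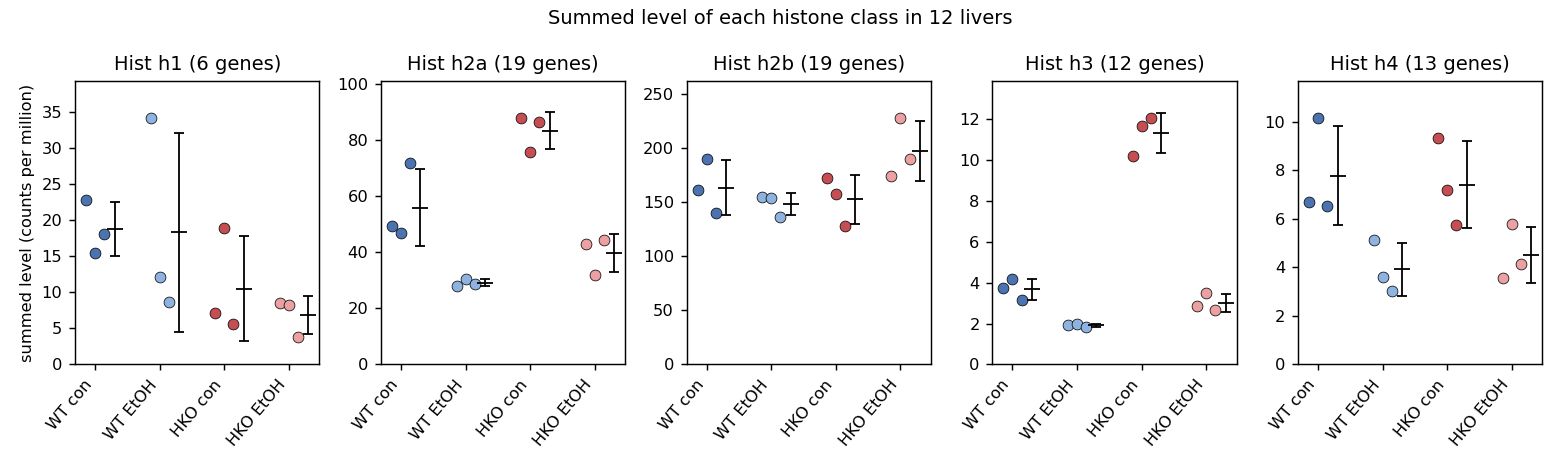
Summed level of the genes of each histone class in CPM after TMM scaling, 1 point per liver, with the mean and SD (n = 3) to the right of each group. Each panel starts at 0. HKO con stands highest for H3 (10.2 to 12.04 CPM) and H2A, whereas HKO EtOH stands highest for H2B.

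In WT liver, ethanol lowered a small number of the genes. Of 41 tested members, 0 were higher (4.24% of all tested genes) and 3 were lower at an adjusted P under 0.05 (4.48% of all). DESeq2 also called 0 higher, and 6 of the 41 had an unadjusted P under 0.05 in the edgeR fit, in either direction. The count of 3 is 7.32% of the members, near the share of all genes. The median log2 fold change of members was -0.33, against 0.01 over all tested genes, and 7 of the 41 values were above 0. Groups did not overlap in 8 members that were lower (16.6% of all genes) and 1 that was higher (16.2%).
Hist2h2be, an H2B gene of the chromosome 3 cluster (chr3:96221072-96223738), read 2.58, 2.78 and 2.51 CPM in WT con and 0.887, 1.13 and 1.27 CPM in WT EtOH. It fell by 1.26 on the log2 scale (SE 0.229, adjusted P = 0.0203), and every ethanol liver was under every control liver. The H2A gene Hist2h2aa1 (chr3:96245497-96246052) read 37.6, 19.6 and 42.3 CPM in WT con and 11.7, 12.8 and 11.9 CPM in WT EtOH, and fell by 1.45 (SE 0.264, adjusted P = 0.0203). The pseudogene Hist1h2al, which lies far from the clusters at chr13:51200084-51203066, read 3.91, 4.80 and 5.23 CPM against 2.66, 1.24 and 1.496 CPM, and fell by 1.37 (SE 0.306, adjusted P = 0.0367). Hist1h4h, the leading H4 gene, read 3.73, 5.52 and 3.07 CPM against 2.49, 0.731 and 0.669 CPM, a log2 difference of -1.67 (SE 0.530) that did not pass (adjusted P = 0.0969).
None of the 3 calls held throughout when libraries were left out. Hist2h2aa1 passed only without WT con replicate 2 (adjusted P up to 0.0704 without the others), Hist1h2al only without WT EtOH replicate 1 (up to 0.115), and Hist2h2be failed without any 1 of the WT con libraries (0.0664 to 0.0845).

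On the control diet, *Ahr* HKO livers held more of a set of H2B and H3 genes than WT livers. Of 41 members, 8 were higher (15.3% of all tested genes) and 1 was lower (14.4%), which is 19.5% and 2.44% of the members. The median log2 fold change of members was 0.59, against -0.0044 for all tested genes, with 29 of 41 above 0. Groups did not overlap in 13 members that were higher (23.2% of all) and 4 that were lower (24.1%). The share called higher was thus close to that of all genes, and the share called lower was under it.
By class, the calls were 0 of 3 in H1, 1 higher of 9 in H2A, 4 higher and 1 lower of 15 in H2B, 3 higher of 4 in H3, and 0 of 10 in H4. The largest change was that of Hist1h2bl (chr13:21715711-21716183), an H2B gene at the end of the proximal chromosome 13 cluster. It read 0.109, 0.214 and 0.143 CPM in WT con and 6.45, 5.22 and 4.34 CPM in HKO con, a log2 fold change of 5.06 (SE 0.306, adjusted P = 0.000574), or 33.3-fold. At the other end of the same cluster, 2 more H2B genes were called higher. Hist1h2bk (chr13:22035821-22036320) read 1.29, 1.80 and 1.17 CPM against 13.6, 10.5 and 8.75 CPM, with a log2 fold change of 2.94 (SE 0.242, adjusted P = 0.000908). Hist1h2bj (chr13:22043198-22043658) read 0.524, 0.732 and 0.511 CPM against 3.63, 2.82 and 2.50 CPM, with a log2 fold change of 2.33 (SE 0.266, adjusted P = 0.00167). For these 3 genes every HKO liver exceeded every WT liver by several-fold. The proximal cluster held 4 more tested H2B genes, none of them called. Among these, Hist1h2bn was at 1.03, 1.77 and 1.12 CPM in WT con and 2.17, 2.099 and 1.69 CPM in HKO con (log2 0.60, SE 0.277, adjusted P = 0.143). Hist1h2bp, named here after its values were seen, was on the other side, at 0.502, 0.857 and 0.531 CPM in WT con and 0.425, 0.341 and 0.302 CPM in HKO con without overlap (log2 -0.82, SE 0.402, adjusted P = 0.166).
Hist1h2bq (chr13:21806412-21810199) read 1.22, 1.62 and 1.31 CPM in WT con and 7.81, 6.48 and 0.968 CPM in HKO con. HKO con replicate 3 was thus under every WT con liver, and the change was not called. Its identical copy Hist1h2br, named here after its values were seen, was low in the same library, at 0.484 CPM against 4.41 and 3.43 CPM in the other HKO con livers. That library was also the lowest of HKO con for Hist1h2bk, Hist1h2bl and Hist1h2bj, but it stayed above every WT con liver for them. The coding sequences of these genes are close to that of Hist1h2bq but not identical with it. With these 5 genes, picked after their values were seen, added together, WT con held 3.13 to 4.98 CPM and HKO con 17.0 to 35.9 CPM. Hist1h2bm, Hist1h2bn and Hist1h2bp of the same cluster were left out, so that the separation of this sum follows in part from the choice.
The single lower call was also an H2B gene. Hist1h2bf (chr13:23573760-23574207), in the distal chromosome 13 cluster, read 2.03, 2.71 and 2.25 CPM in WT con and 0.947, 0.700 and 0.887 CPM in HKO con, and fell by 1.46 (SE 0.242, adjusted P = 0.00545). Hist1h2be (chr13:23583670-23621124) of the same cluster was higher, at 5.77, 5.72 and 4.54 CPM against 3.10, 3.75 and 2.78 CPM (log2 0.73, SE 0.178, adjusted P = 0.0206). The leading gene, Hist1h2bc, read 127.4, 147.7 and 108.8 CPM in WT con and 103.2, 98.3 and 84.4 CPM in HKO con, a log2 difference of -0.43 (SE 0.141) that did not pass (adjusted P = 0.0584). H2B genes thus went in opposite directions in the same livers, and reads shared among them were not tested as a part of this.
In H3, Hist2h3c2 (chr3:96238479-96239127) read 1.55, 1.64 and 1.17 CPM in WT con and 6.53, 4.78 and 4.80 CPM in HKO con (log2 1.88, SE 0.217, adjusted P = 0.00167). Hist2h3b (chr3:96268654-96269155) read 0.415, 0.589 and 0.470 CPM against 2.12, 1.52 and 1.41 CPM (log2 1.77, SE 0.303, adjusted P = 0.00604). Hist1h3d (chr13:23575763-23576266) rose from at most 0.125 CPM to between 0.495 and 0.653 CPM (log2 2.90, SE 0.601, adjusted P = 0.0117). In all 3 of these genes the groups were apart. Hist2h3b shared 93.3% of its 100-base windows with other members, and a run of 390 bases with Hist2h3c2. The values of these 2 genes are therefore not independent in any comparison. In H2A, Hist3h2a (chr11:58954685-58955192), which shared no 100-base window with another member, read 3.56, 2.50 and 2.41 CPM against 6.60, 4.73 and 4.50 CPM (log2 0.90, SE 0.229, adjusted P = 0.0235).
Of these 9 calls, 7 held with any 1 library left out. Hist1h2be failed without HKO con replicate 1 or 2 or WT con replicate 1 or 3 (adjusted P = 0.0557 to 0.0712), and Hist3h2a without HKO con replicate 1 or WT con replicate 2 or 3 (0.0622 to 0.0832).

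**Figure D3:**
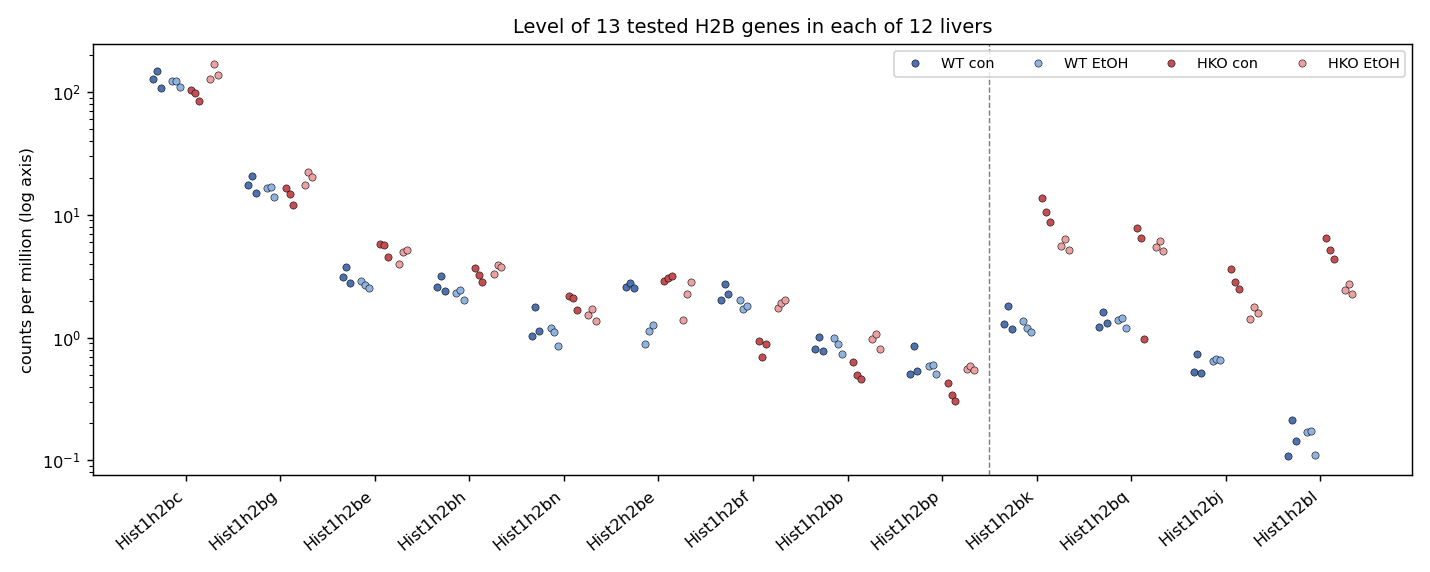
Level of 13 tested H2B genes in CPM on a log axis, 1 point per liver and 1 colour per group. The 4 genes right of the dashed line, Hist1h2bk, Hist1h2bq, Hist1h2bj and Hist1h2bl, belong to the proximal chromosome 13 cluster and were set apart after their values were seen. Their HKO points lie above their WT points, except for HKO con replicate 3 of Hist1h2bq at 0.968 CPM. Hist1h2bn and Hist1h2bp of the same cluster stand left of the line.

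On the ethanol diet the genotypes differed in few genes of any kind, and 3 of the 7 tested H2B genes of the proximal chromosome 13 cluster were among them. Of 41 members, 3 were higher in HKO (0.684% of all tested genes) and 0 were lower (0.378%). DESeq2 called 7 higher and 1 lower, and 12 of the 41 had an unadjusted P under 0.05 in the edgeR fit, in either direction. The 3 calls were 7.32% of the members. The median log2 fold change of members was 0.34, against -0.01 for all tested genes, and it was also 0.34 with a gene at 0 counts set to its bound. Groups did not overlap in 13 members that were higher (13.7% of all) and 1 that was lower (14.2%).
Hist1h2bl read 0.170, 0.175 and 0.111 CPM in WT EtOH and 2.47, 2.72 and 2.28 CPM in HKO EtOH (log2 4.02, SE 0.302, adjusted P = 0.00606). Hist1h2bk read 1.36, 1.19 and 1.11 CPM against 5.57, 6.36 and 5.19 CPM (log2 2.22, SE 0.181, adjusted P = 0.00858). Hist1h2bq read 1.40, 1.45 and 1.19 CPM against 5.47, 6.14 and 5.10 CPM (log2 2.05, SE 0.178, adjusted P = 0.00897). The 3 genes were thus 4.14-fold to 16.2-fold higher in HKO EtOH, with narrow spreads inside each group. Hist1h2br had 0 counts in every WT EtOH library and 104, 95 and 13 counts in HKO EtOH, which is at least 21.3-fold higher when 3 counts per library are taken as the floor. Hist1h2bj read 0.642, 0.668 and 0.653 CPM against 1.42, 1.77 and 1.60 CPM without overlap, but did not pass (log2 1.28, SE 0.252, adjusted P = 0.0654). Hist1h2br (adjusted P = 0.0620), Hist1h2bn (0.276) and Hist1h2bp (0.986) did not pass either. Hist1h2bq was not called without HKO EtOH replicate 3 (adjusted P = 0.0541), and the other calls held with any 1 library left out.

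In *Ahr* HKO liver, ethanol lowered genes of all 5 classes and raised 3 H2B genes. Of 41 members, 3 were higher (15% of all tested genes) and 10 were lower (16.1%), which is 7.32% and 24.4% of the members. The median log2 fold change of members was -0.62, against -0.02 for all tested genes, with 7 of 41 above 0. Groups did not overlap in 17 members that were lower (25.3% of all) and 5 that were higher (24.5%). Lower calls were 1 of 3 in H1, 2 of 9 in H2A, 3 of 15 in H2B, 2 of 4 in H3 and 2 of 10 in H4, and the 3 higher calls were all in H2B.
This comparison and that of HKO con with WT con share the HKO con livers, and the 8 genes called higher there are given here side by side. Hist2h3c2 was 1.11, 1.77 and 1.17 CPM in HKO EtOH and fell by 1.99 (SE 0.250, adjusted P = 0.00295). Hist2h3b was 0.312, 0.463 and 0.428 CPM and fell by 2.07 (SE 0.312, adjusted P = 0.00474). The HKO EtOH livers thus overlapped with the WT con livers for Hist2h3c2 (1.17 to 1.64 CPM) and Hist2h3b (0.415 to 0.589 CPM). Hist1h2bl fell by 1.10 (SE 0.191, adjusted P = 0.00724), Hist1h2bk by 0.94 (SE 0.185, adjusted P = 0.0107) and Hist1h2bj, to 1.42 to 1.77 CPM, by 0.90 (SE 0.217, adjusted P = 0.0205). These 3 H2B genes stayed above every WT liver. The remaining 3 of the 8 did not pass. Hist1h3d read 0.170, 0.633 and 0.473 CPM (log2 -0.50, SE 0.514, adjusted P = 0.491), above the highest WT liver at 0.143 CPM. Hist1h2be differed by a log2 value of -0.18 (SE 0.169, adjusted P = 0.437) and Hist3h2a by -0.80 (SE 0.257, adjusted P = 0.0529).
Hist2h2aa2 (chr3:96239779-96240374) read 37.8, 33.0 and 41.7 CPM in HKO con and 12.6, 11.8 and 19.0 CPM in HKO EtOH, and fell by 1.38 (SE 0.196, adjusted P = 0.00409). Hist2h2aa1 fell by 0.92 (SE 0.242, adjusted P = 0.0279). Among H4 genes, Hist1h4i (chr13:22040960-22041362) read 2.24, 2.58 and 1.96 CPM against 0.950, 1.45 and 1.06 CPM and fell by 0.97 (SE 0.249, adjusted P = 0.0257). Hist1h4k, at 0.282 to 0.637 CPM against 0.135 to 0.154 CPM, fell by 1.65 (SE 0.498, adjusted P = 0.0434). The H1 gene Hist1h1d, at 0.383 to 1.19 CPM against 0.108 to 0.269 CPM, fell by 2.05 (SE 0.628, adjusted P = 0.0449). These last values rest on few reads.
The 3 genes that rose lie in the distal chromosome 13 cluster. Hist1h2bf read 1.73, 1.93 and 2.03 CPM in HKO EtOH (log2 1.16, SE 0.235, adjusted P = 0.0116), which is in the range of the WT livers. Hist1h2bc read 126.7, 170.5 and 138.0 CPM (log2 0.61, SE 0.146, adjusted P = 0.0203). Hist1h2bg (chr13:23571400-23571863) read 16.4, 14.7 and 12.1 CPM in HKO con and 17.6, 22.1 and 20.2 CPM in HKO EtOH (log2 0.47, SE 0.146, adjusted P = 0.0460).
Of the 13 calls, 6 held with any 1 library left out. The other 7 failed without at least 1 library: Hist1h2bc without HKO EtOH replicate 2 or 3 (adjusted P up to 0.0551), Hist1h2bj without HKO con replicate 1 or HKO EtOH replicate 1 or 3 (up to 0.0645), Hist2h2aa1 without HKO con replicate 1 or 2 or HKO EtOH replicate 3 (up to 0.0770), Hist1h4i, Hist1h2bg and Hist1h1d without any of 4 libraries (up to 0.0835, 0.136 and 0.152) and Hist1h4k without any of 5 (up to 0.132).

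The effect of ethanol itself differed between genotypes in 5 of 41 members. In the fit of all 12 livers, 3 members had a higher ethanol effect in HKO than in WT (11.2% of all tested genes) and 2 a lower one (11.1%). These are 7.32% and 4.88% of the members, both under the shares of all genes. The difference of log2 fold changes was 1.497 for Hist1h2bf (SE 0.287, adjusted P = 0.00496), 0.72 for Hist1h2bc (SE 0.200, adjusted P = 0.0264) and 0.64 for Hist1h2bg (SE 0.210, adjusted P = 0.0492). It was -1.56 for Hist2h3b (SE 0.459, adjusted P = 0.0323) and -1.05 for Hist1h2bj (SE 0.330, adjusted P = 0.0420). In WT, Hist1h2bf was 2.03, 2.71 and 2.25 CPM on the control diet and 2.04, 1.72 and 1.80 CPM on ethanol, and Hist1h2bc was 108.8 to 147.7 CPM and 109.3 to 123.9 CPM, so that WT groups overlapped for both. Hist1h2bf alone of the 5 held with any 1 of the 12 libraries left out (adjusted P = 0.00761 to 0.0158).

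**Figure D4:**
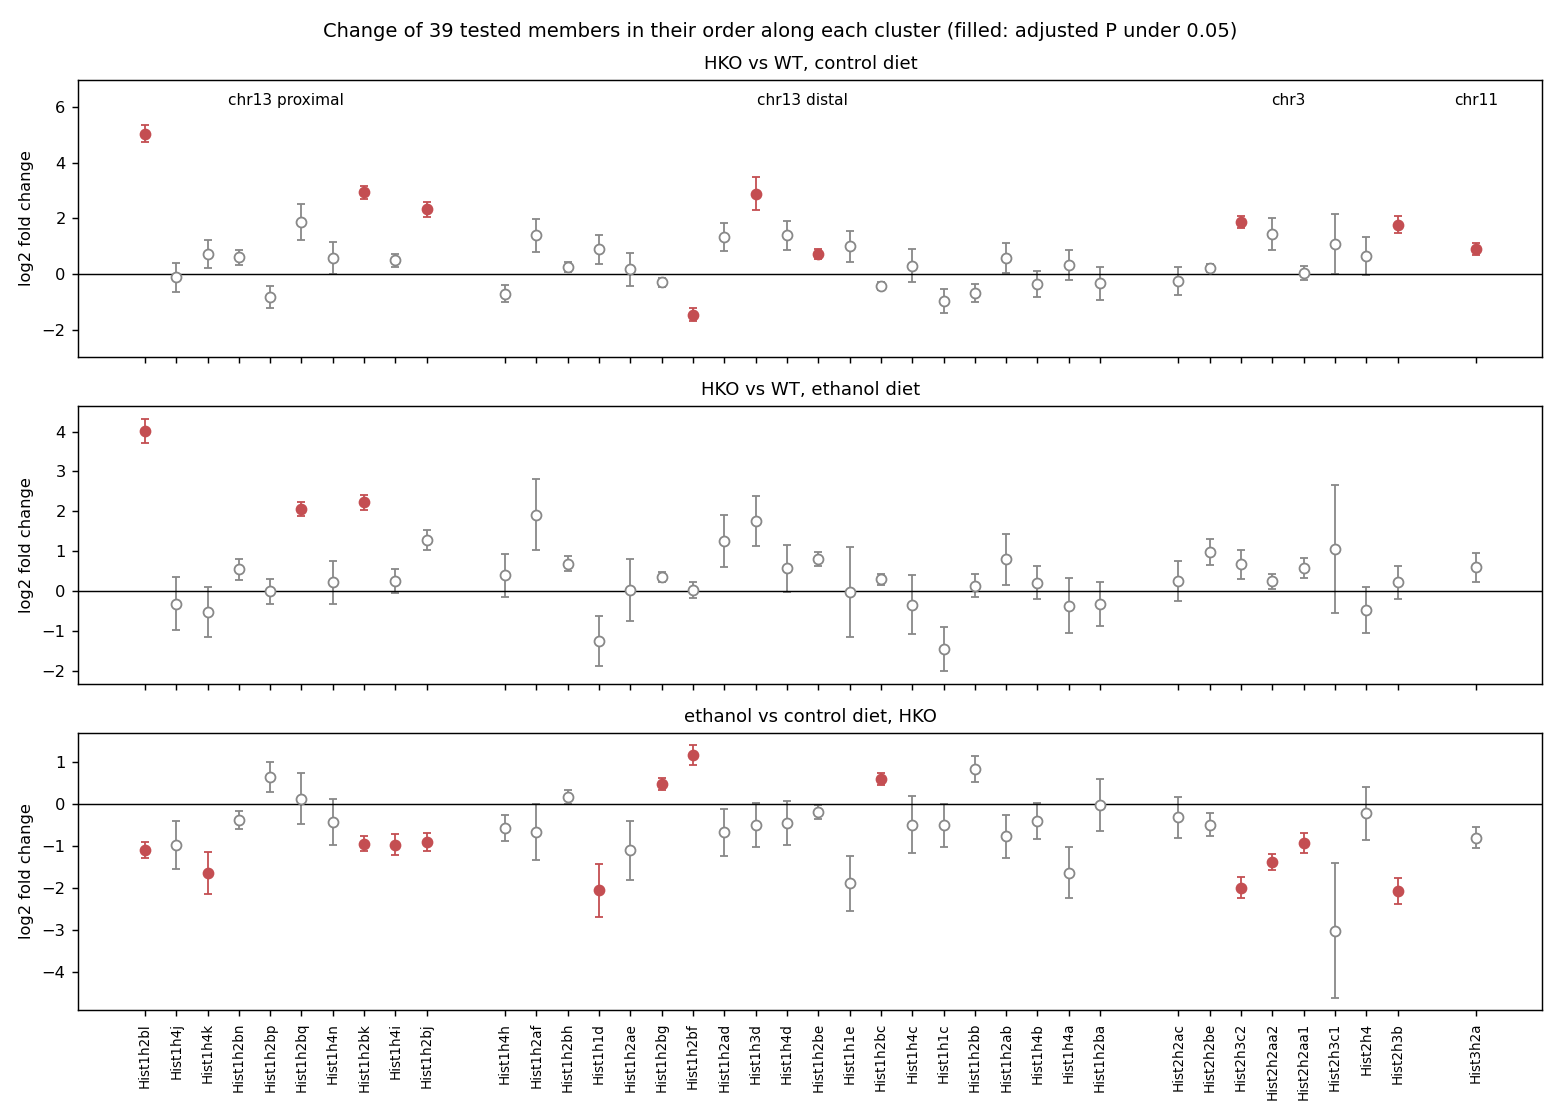
Log2 fold change and its SE for 39 tested members, in the order of the genes along each cluster with even spacing, in 3 comparisons. Filled points have an adjusted P under 0.05. Hist1h2br, at 0 counts in every WT EtOH library, and the lone pseudogene Hist1h2al are not drawn. Hist1h2bl stands highest in both genotype comparisons (5.06 and 4.02), and the chromosome 3 genes lie under 0 in the lowest panel.

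Genes with the same coding sequence were counted unevenly between livers. Hist2h2aa1 and Hist2h2aa2 share their whole coding sequence, as do Hist1h2bq and Hist1h2br, and the 411 coding bases of Hist2h3c2 all lie inside the 546 of Hist2h3c1. Hist2h2aa1 and Hist2h2aa2 held 1722 and 141 counts in WT con replicate 1 but 1099 and 1006 in replicate 2, and 620 and 621 in WT EtOH replicate 1. Hist2h3c1 held 1 count in WT EtOH replicate 1 and 2, HKO con replicate 1 and HKO EtOH replicate 2 and 3, where Hist2h3c2 held 52 to 400 counts. How a pair's reads were split thus changed between livers of 1 group, and a single member of a pair is uncertain.
The sums were therefore also tested, as an alternative chosen after seeing the data. Hist2h2aa1+Hist2h2aa2 read 40.7, 37.6 and 62.5 CPM in WT con, 23.4, 25.8 and 23.9 CPM in WT EtOH, 75.4, 65.7 and 74.1 CPM in HKO con and 36.5, 23.4 and 37.9 CPM in HKO EtOH. Ethanol lowered this sum in WT (log2 -0.94, SE 0.192, adjusted P = 0.0280) and in HKO (log2 -1.14, SE 0.188, adjusted P = 0.00626), and the genotype difference on the control diet missed the threshold (log2 0.61, SE 0.195, adjusted P = 0.0509).
Hist2h3c1+Hist2h3c2 read 3.10, 3.05 and 2.23 CPM in WT con, 1.02, 1.03 and 0.987 CPM in WT EtOH, 6.55, 8.86 and 9.18 CPM in HKO con and 2.06, 1.79 and 1.20 CPM in HKO EtOH. This H3 sum fell with ethanol in WT (log2 -1.46, SE 0.229, adjusted P = 0.0135) and in HKO (log2 -2.27, SE 0.243, adjusted P = 0.00212), and was higher in HKO on the control diet (log2 1.55, SE 0.201, adjusted P = 0.00239). In WT, neither Hist2h3c2 alone (log2 -0.77, adjusted P = 0.207) nor Hist2h3c1 alone had passed.
Hist1h2bq+Hist1h2br read 1.22, 2.23 and 1.31 CPM in WT con, 1.40, 1.45 and 1.19 CPM in WT EtOH, 12.2, 9.91 and 1.45 CPM in HKO con and 6.95, 7.61 and 5.39 CPM in HKO EtOH. The sum was higher in HKO on both diets (log2 2.303, SE 0.698, adjusted P = 0.0437 on the control diet, and log2 2.304, SE 0.198, adjusted P = 0.00852 on ethanol), with HKO con replicate 3 among the WT values. Adding the copies did not even out that library, and the spread of the sum in HKO con was 7.86 ± 5.67 CPM.

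**Figure D5:**
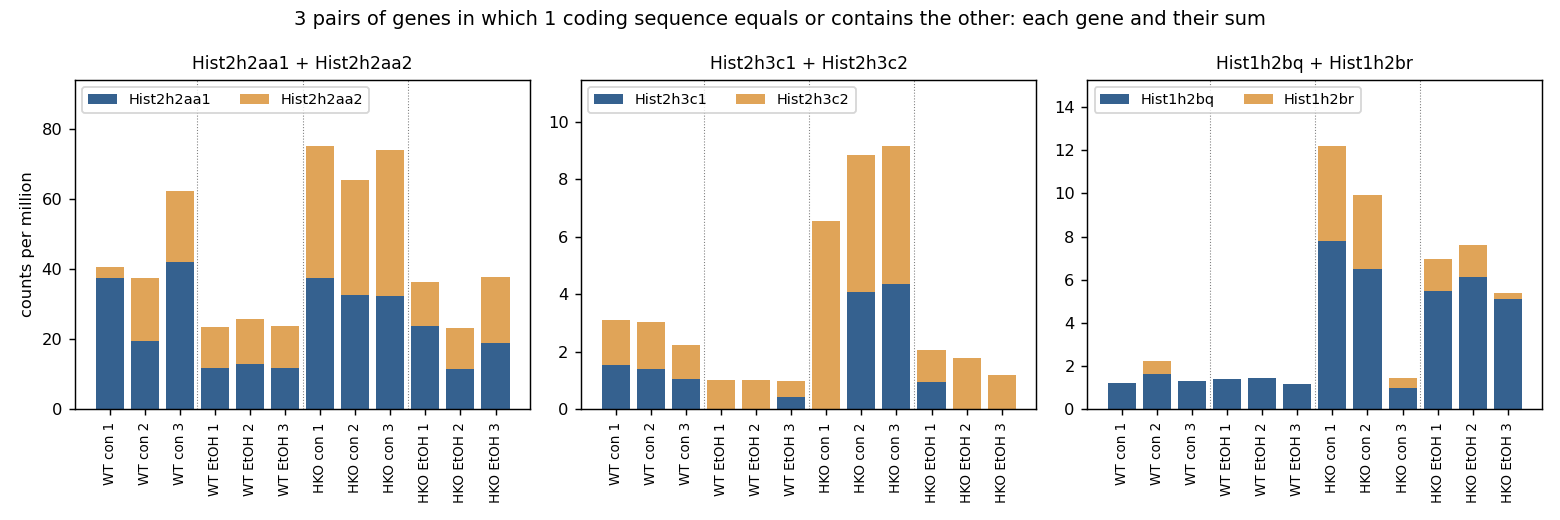
CPM of 3 pairs of genes in which 1 coding sequence equals or contains the other, in each of the 12 livers, stacked so that the full bar is the sum of the pair. The split within a bar varies between livers of a group, as in WT con 1 for Hist2h2aa1 and Hist2h2aa2, and the full bars are highest in HKO con for the H2A and H3 pairs. In the H2B pair HKO con 3 stands low (1.45 CPM).

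By position, 31 members lie in the distal chromosome 13 cluster (23531044 to 23934913), 23 in the proximal one (21715711 to 22043658), 10 on chromosome 3 (96219885 to 96270192), 3 on chromosome 11, 1 on chromosome 6, and 1, the pseudogene, elsewhere on chromosome 13. The proximal cluster summed to 8.76 ± 2.23 CPM in WT con, 7.08 ± 0.858 CPM in WT EtOH, 33.7 ± 10.3 CPM in HKO con and 20.9 ± 2.49 CPM in HKO EtOH (SD, n = 3 each), with both HKO groups apart from their WT groups. In the distal cluster HKO con was the lowest, at 136.7 ± 17.4 CPM against 180.0 ± 23.8 CPM in WT con, without overlap in CPM but with overlap in FPKM (163.9 to 228.4 against 224.4 to 289.0). The chromosome 3 cluster read 53.2 ± 12.9, 27.2 ± 1.38, 85.1 ± 4.83 and 37.2 ± 7.79 CPM in WT con, WT EtOH, HKO con and HKO EtOH. The cluster sums thus ordered the 4 groups differently, as the class sums did, but few genes carried each sum. In WT con, Hist2h2aa1+Hist2h2aa2 held 46.9 of the 53.2 CPM on chromosome 3, and Hist1h2bc 128.0 of the 180.0 CPM of the distal cluster. In HKO con the 5 H2B genes picked above held 27.1 of the 33.7 CPM of the proximal cluster. Between HKO con and WT con, the 20 tested distal members had a median log2 fold change of 0.28, with 12 above 0.
Many histone genes share a promoter region with a gene on the other strand. The H2A genes that lie head to head with Hist1h2bj, Hist1h2bk, Hist1h2bl, Hist1h2bq and Hist1h2br, 167 to 267 bases away, held 1 to 10 counts in every library and were too low to be tested. In every HKO library the H2B gene of each such pair held more counts than its H2A neighbour. In WT livers this was not so for Hist1h2br, at 0 in 5 of 6 libraries, and Hist1h2bl was near its neighbour, at 5, 12 and 7 counts in WT con against 5, 5 and 7 for Hist1h2ai.

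Promoters are shown for genes that moved, since histone promoters are known for CCAAT boxes, TATA boxes and, in H2B genes, the octamer ATTTGCAT bound by OCT1, and since the aryl hydrocarbon receptor with its partner ARNT binds DNA at the core GCGTG. RefSeq sequences (GRCm38.p6) of 250 bases before to 50 after the start were at hand for 62 members, with 63 promoters, and matches on either strand are in capitals. Hist1h2bl lies at chr13:21716134-21716433 (minus strand), Hist1h2bk at chr13:22035571-22035870 (plus) and Hist2h2aa1 at chr3:96245247-96245546 (plus).
Hist1h2bl promoter: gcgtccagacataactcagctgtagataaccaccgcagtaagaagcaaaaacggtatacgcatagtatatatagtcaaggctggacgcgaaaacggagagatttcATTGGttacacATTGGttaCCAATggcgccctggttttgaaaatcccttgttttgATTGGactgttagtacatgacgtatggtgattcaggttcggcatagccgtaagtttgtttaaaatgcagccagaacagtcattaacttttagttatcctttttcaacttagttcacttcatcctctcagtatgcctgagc
Hist1h2bk promoter: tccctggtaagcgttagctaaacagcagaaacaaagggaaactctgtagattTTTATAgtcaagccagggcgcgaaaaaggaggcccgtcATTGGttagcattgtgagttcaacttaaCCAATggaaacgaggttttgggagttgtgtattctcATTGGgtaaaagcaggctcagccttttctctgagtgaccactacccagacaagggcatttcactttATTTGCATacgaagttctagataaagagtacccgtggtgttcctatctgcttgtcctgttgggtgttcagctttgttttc
Hist2h2aa1 promoter: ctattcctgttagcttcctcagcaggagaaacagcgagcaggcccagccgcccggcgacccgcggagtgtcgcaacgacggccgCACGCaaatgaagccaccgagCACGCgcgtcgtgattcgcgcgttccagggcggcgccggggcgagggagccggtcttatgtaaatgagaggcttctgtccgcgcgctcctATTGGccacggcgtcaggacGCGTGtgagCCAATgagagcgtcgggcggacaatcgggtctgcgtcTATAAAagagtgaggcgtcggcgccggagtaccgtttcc
CCAAT (or ATTGG) occurred in 85.7% of member promoters against 37.4% of 32851 promoters of the same length, TATAAA in 55.6% against 13.6%, ATTTGCAT in 22.2% against 1.70%, and GCGTG (or CACGC) in 27.0% against 32.4%. The letters GCGTG were not in the windows of Hist1h2bj, Hist1h2bk, Hist1h2bl, Hist1h2bq and Hist1h2br, and were in those of Hist2h3b, Hist2h3c1, Hist2h3c2, Hist2h2aa1 and Hist2h2aa2. A match is a description of these windows and not a measured site.

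Genes that make, process or use histone messages moved partly in other ways. Of 29 tested genes of DNA replication and S phase, HKO con against WT con had 1 higher (15.3% of all tested genes) and 6 lower (14.4% of all), and HKO EtOH against HKO con had 4 higher (15% of all) and 0 lower (16.1% of all). These are 3.45%, 20.7%, 13.8% and 0% of the list. Tk1, thymidine kinase of S phase, fell by 2.26 (SE 0.211, adjusted P = 0.00107) in HKO on the control diet and was higher by 2.83 (SE 0.176, adjusted P = 0.000849) with ethanol in HKO. Lig1, the ligase that joins newly copied DNA, fell by 1.35 (SE 0.205, adjusted P = 0.00401) and was higher by 0.94 (SE 0.235, adjusted P = 0.0238) in the same comparisons. Of the members called in both comparisons, Hist2h3b, Hist2h3c2, Hist1h2bj, Hist1h2bk and Hist1h2bl went the other way from Tk1 and Lig1, and Hist1h2bf went the same way. Hist1h2bc, not called in the first comparison, also went the same way as Tk1 and Lig1. The list summed to 154.6 to 173.1 CPM in WT con, 133.6 to 161.5 CPM in WT EtOH, 118.3 to 128.0 CPM in HKO con and 147.6 to 169.3 CPM in HKO EtOH. The median log2 fold change of the 29 genes was -0.24 and 0.05 in those comparisons.
Of 14 tested mitosis genes, 0 were called between HKO con and WT con, and 1 was higher (7.14%, against 15% of all tested genes) and 4 were lower (28.6%, against 16.1%) with ethanol in HKO, among them Mki67, a marker of cycling cells, which fell by 1.39 (SE 0.249, adjusted P = 0.00804), and Top2a, the topoisomerase of dividing cells, which fell by 1.95 (SE 0.404, adjusted P = 0.0124).
Of 19 genes for transcription and 3′ processing of histone messages, 7 were higher (36.8%, against 15.3% of all tested genes) and 3 lower (15.8%, against 14.4%) in HKO con against WT con, and 2 were higher (10.5%, against 15%) and 6 lower (31.6%, against 16.1%) with ethanol in HKO. Cpsf2, a subunit of the complex that cuts histone messages, was higher by 0.55 (SE 0.0995, adjusted P = 0.00726) and then fell by 0.56 (SE 0.0982, adjusted P = 0.00738). Cstf2, a cleavage stimulation factor, was higher by 0.69 (SE 0.106, adjusted P = 0.00417) and fell by 0.63 (SE 0.111, adjusted P = 0.00774). Npat, the coactivator of clustered histone genes, fell by 0.73 (SE 0.137, adjusted P = 0.00887) with ethanol in HKO. Zcchc11, an enzyme that adds uridines to RNA ends, was lower in HKO con (log2 -0.80, SE 0.111, adjusted P = 0.00310). The list summed to 448.1 to 462.9 CPM in WT con and 504.8 to 535.9 CPM in HKO con, without overlap.
Of 10 tested histone variant genes outside the clusters, 2 were higher (20%, against 15.3% of all tested genes) and 3 lower (30%, against 14.4%) in HKO con. H3f3b, which encodes the H3.3 variant, was higher by 1.35 (SE 0.288, adjusted P = 0.0132) and fell by 1.60 (SE 0.285, adjusted P = 0.00798) with ethanol in HKO, as the H3 genes of chromosome 3 did. H2afx was higher by 1.25 (SE 0.122, adjusted P = 0.00112), while H2afv fell by 1.07 (SE 0.161, adjusted P = 0.00383) and Cenpa, the H3 variant of centromeres, by 1.44 (SE 0.214, adjusted P = 0.00372). Of 19 histone chaperones, 1 was higher and 1 lower in HKO con (5.26% each), and 1 was higher (5.26%) and 2 lower (10.5%) with ethanol in HKO, all under the shares of all genes.
In the other comparisons the lists had few calls, though those made were at shares above that of all tested genes. Each such share rests on 1 or 2 genes. In WT, ethanol gave 0 higher and 2 lower (6.9%) replication genes, 0 mitosis calls, and 1 higher (5.26%) and 0 lower processing gene. It gave 0 higher and 1 lower (5.26%) chaperone, and 1 higher and 1 lower variant (10% each). Of all tested genes 4.24% were higher and 4.48% lower. On ethanol the genotypes differed in 1 of these genes, Tk1 (log2 1.35 higher in HKO, SE 0.126, adjusted P = 0.0118). This is 3.45% of the replication list, against 0.684% of all tested genes.

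Markers of other liver cells moved in some of the same comparisons, and their part in the histone values was not tested. With ethanol in HKO all 7 Kupffer cell and macrophage markers were lower, and they summed to 304.5 to 878.1 CPM in HKO con, 192.6 to 239.4 CPM in HKO EtOH, 343.3 to 454.3 CPM in WT con and 306.2 to 797.8 CPM in WT EtOH, with none at 0. In HKO con against WT con, 0 of the 7 were called. Neutrophil markers, 3 of 5 tested, summed to 1.59 to 2.84 CPM in WT con, 3.85 to 7.33 CPM in WT EtOH, 7.29 to 8.36 CPM in HKO con and 2.39 to 3.35 CPM in HKO EtOH. Of the 3, S100a8 and S100a9 were higher in HKO con (66.7%, against 15.3% of all tested genes). Both were lower with ethanol in HKO (66.7%, against 16.1%), and S100a9 was higher with ethanol in WT (33.3%, against 4.24%). The defining Ly6g held only 6 counts in WT EtOH replicate 3 and 5 in HKO con replicate 1, and was at 0 in every other library. Of 8 tested lymphocyte markers 2 were lower in HKO con (25%, against 14.4% of all tested genes), and the list summed to 2.26 to 4.72 CPM there and 4.27 to 6.26 CPM in WT con. Hepatocyte markers (6 genes) summed to between 71550 and 114100 CPM in all livers, but single genes were called. Tat was higher in HKO on the control diet (log2 1.71) and on ethanol (1.62), and with ethanol in WT (1.24). Apoa1 was lower with ethanol in WT (log2 -1.09), and Ttr was higher with ethanol in HKO (0.81). Each call is 16.7% of the list, against 0.684% to 15.3% of all tested genes. Endothelial (5), stellate (6), cholangiocyte (4 tested) and erythroid (4 tested) markers had at most 2 calls each in any comparison. In HKO con against WT con, 2 of 4 erythroid markers were lower (50%, against 14.4% of all tested genes). With ethanol in HKO, 2 of 5 endothelial markers were lower (40%, against 16.1%). With ethanol in WT, 2 of 6 stellate markers were higher (33.3%, against 4.24%). Erythroid markers summed to 328.4 to 494.4 CPM in WT con and 110.6 to 217.2 CPM in WT EtOH. In HKO con they summed to 84.95 to 269.5 CPM, and in HKO EtOH to 228.0 to 298.5 CPM.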

How the data were processed

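Liver RNA of 12 mice was made into stranded mRNA libraries with poly-T beads and sequenced as paired 100-base reads. Per the labels' processing notes, the authors used FastQC 0.11.7, Trimmomatic 0.38, HISAT2 2.1.0, Bowtie2 2.3.4.1 and StringTie 1.3.4d on mm10. The authors deposited read counts per gene without normalization, FPKM values scaled by length and depth, and TPM values, which were not used here. Reads that match several histone genes were assigned by rules not given in the sources used here.

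Groups came from the labels. Where nothing else is said, livers are separate animals. The gene family and the gene lists were chosen with earlier results of these data known, and membership in the family followed from the symbol. Each comparison was fitted with edgeR 4.0.16 (R 4.3.3, quasi-likelihood, TMM) on its own 6 livers, and the interaction on all 12, over 14038 genes that passed filterByExpr, with Benjamini-Hochberg adjustment over all of them and an adjusted P under 0.05 as the threshold. SE is the log2 fold change divided by the square root of F. Class sums had no test. Alternatives were DESeq2 1.42.0, limma 3.58.1 on quantile-normalized log2(FPKM + 1) and log2(FPKM + 0.1), upper-quartile scaling, no filter, 1 fit of all livers, a replicate block, leaving out each library and, chosen after seeing the data, the sums of genes whose coding sequence equals or lies inside that of another. Named genes were the 3 highest by FPKM per class, all called members, and at most 4 called genes per list and comparison. The fit was tested on simulated counts. Positions are from RefSeq GRCm38.p6, matched by Entrez identifier for 69 members, and transcripts from GENCODE. With 46306518 to 74336255 counts per library, 3 counts correspond to 0.0425 to 0.0677 CPM, which covers counting error only.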

Additional observations from a re-analysis of the deposited data

Results flagged for a closer look

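The ethanol effect differed between WT and *Ahr* HKO livers in 5 members by the interaction term of the edgeR fit, and these were singled out for that difference. Hist1h2bf had a difference of log2 fold changes of 1.497 (SE 0.287), Hist1h2bc of 0.72 (SE 0.200) and Hist1h2bg of 0.64 (SE 0.210), all positive, with a higher ethanol effect in HKO. Hist2h3b had a difference of -1.56 (SE 0.459) and Hist1h2bj of -1.05 (SE 0.330), with a lower ethanol effect in HKO. Among all tested genes, 11.2% were called in the positive and 11.1% in the negative direction, against 7.32% and 4.88% of the members. Such calls were thus less frequent among the members than among all genes. Hist1h2bc and Hist1h2bg share 73.0% of their 100-base coding windows, so that their values are not independent. The part of shared reads in these differences was not tested.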

How the results depend on the processing

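Signs were checked for members that were called or whose groups did not overlap in a comparison, and none of these values changed its sign under any alternative. Other single-gene values, among them those of the related lists, were not checked in this way. Calls of each list were added over the 4 pairwise comparisons. Under DESeq2 the calls in WT were 5 lower, in HKO against WT on the control diet 3 lower, on ethanol 7 higher and 1 lower, in the interaction 4 lower, in the mitosis list 9 and in the variant list 17. With limma on log2(FPKM + 0.1) they were 1 lower in WT, 2 lower in HKO con against WT con and 5 higher in HKO EtOH against WT EtOH, and with log2(FPKM + 1) they were 2 lower in HKO con against WT con, 5 lower in the interaction and 2 in the mitosis list. In 1 fit of all livers HKO con against WT con had 2 lower and the mitosis list 8, upper-quartile scaling gave 2 lower in HKO con against WT con, and no filter gave 1 lower in the interaction. The cause of these shifts was not tested, except that no filter adds genes to the adjustment.

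The study names no pairing, and livers with the same number were treated as unpaired. Their deviations from group means correlated at -0.088 to 0.178. Livers of different numbers were not correlated for comparison, so these values cannot decide whether livers were paired. With the replicate block, 0 members were called lower with ethanol in WT, and the chaperone, mitosis and variant lists had 2, 3 and 6 calls. No other count moved by over 1.5 times under the block, which was within that range for the replication and processing lists too.

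Leaving out 1 library gave, for ethanol in WT, 0 to 0 higher and 0 to 3 lower (1 without WT EtOH replicate 2 or WT con replicate 1 or 2, and 0 without WT con replicate 3). HKO con against WT con had 6 to 10 higher and 1 to 2 lower (2 without HKO con replicate 1 or 2 or WT con replicate 3). HKO EtOH against WT EtOH had 2 to 3 higher and 0 lower. Ethanol in HKO had 1 to 3 higher (1 without HKO EtOH replicate 2 or 3) and 5 to 10 lower (5 without HKO EtOH replicate 3 or HKO con replicate 1). The interaction had 1 to 4 higher (1 without HKO EtOH replicate 2, HKO con replicate 3, WT EtOH replicate 3 or WT con replicate 1 or 2) and 0 to 3 lower (0 without HKO EtOH replicate 1 or 3, HKO con replicate 1, WT EtOH replicate 2 or WT con replicate 1 or 3, and 1 without HKO con replicate 2 or WT EtOH replicate 1). Lists had 10 to 15 (replication), 4 to 7 (chaperones), 15 to 18 (processing), 3 to 5 (mitosis, 3 without HKO EtOH replicate 3 or HKO con replicate 2 or 3) and 7 to 9 calls (variants), against 14, 6, 19, 5 and 10 with all livers.

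Without its top gene the log2 ratio of the H1 sum in HKO con against WT con went from -0.84 to 0.90, and that of H2B from -0.10 to 0.69. On ethanol the H1 ratio of HKO to WT went from -1.42 to -0.55, and that of H2B from 0.41 to 0.80. With ethanol in HKO they went from -0.63 to -1.78 and from 0.37 to -0.14. Without Hist2h2aa1 the H2A ratio went from -0.94 to -0.42 with ethanol in WT. It went from 0.57 to 1.11 in HKO con against WT con. Hist2h2aa2, with the same coding sequence, stayed in that sum. Without Hist1h4h the H4 ratio with ethanol in WT went from -0.99 to -0.49. The H1 ratio was -1.57 without HKO con replicate 2. With ethanol in WT it went from -0.04 to -0.85 without WT EtOH replicate 1. The 22 members that never reached 10 counts could not be compared at this depth.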
